A study of Mus musculus with 6 samples.

Results

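The genes described here are the cyclins, the cyclin-dependent kinases (CDKs), the inhibitors of these kinases and the E2F factors with their regulators. They were chosen by name from a list of 41 symbols, drawn up with earlier results of these data known. All 41 were found among the 21362 genes of the count table. They were measured by RNA sequencing of mouse CD4+ T cells in 6 libraries. CD4+ T cells are the helper and regulatory T lymphocytes. The series concerned Treg cells given sorafenib, an inhibitor of several protein kinases, and cells without it. The labels number the libraries and name the cell type, without genotype, strain, age, culture condition or treatment. Treated and untreated cells were therefore not compared, and no library was placed in a group. Values listed in a series run from library 1 to library 6, after the numbers in the titles.

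Cells enter division when D-type cyclins activate Cdk4 and Cdk6, which begin to phosphorylate the retinoblastoma family of pocket proteins. Freed E2F factors then induce cyclin E, cyclin A and the replication genes, and a later wave driven by Foxm1 and by the B-Myb and MuvB complex induces cyclin B, Cdk1 and their regulators. In T cells this programme starts after stimulation through the antigen receptor and interleukin 2, while inhibitors such as p27, encoded by Cdkn1b, hold resting cells out of the cycle.

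Between 32435799 and 36316162 reads were assigned to genes per library, of which the 41 genes took from 0.566% to 0.596%. Levels in CPM are read counts scaled to a common library total by TMM, a correction for library composition. Levels of different genes were set against each other only in FPKM, which also divides by gene length. All 8 T cell markers examined were present, with summed levels from 2466 to 3042 CPM, against at most 0.752 CPM for 5 myeloid markers and 0.515 CPM for 4 NK cell markers. Of the genes that mark killer T cells, Cd8a had 0.231 to 0.661 CPM and Cd8b1 had 8.15 to 9.57 CPM. In bulk RNA, fewer dividing cells and less RNA of these genes per cell cannot be told apart.

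The most abundant of the 41 genes by FPKM was Cdkn1a, which encodes the CDK inhibitor p21, with a median of 339 FPKM and a range of 305 to 361 FPKM. Ccng1, a p53-induced cyclin, followed with 201 FPKM, and its range overlapped with that of Ccnd2, a D-type cyclin, at 200.2 FPKM. Ccnd3, with a median of 133 FPKM, and Ccng2, with 128 FPKM, also overlapped in their ranges over the libraries. Cdkn1b had 85.0 FPKM, Cdk4 73.6 FPKM, Cdkn2d 69.3 FPKM and Cdk6 65.6 FPKM, each overlapping with the next in this order. The mitotic genes Ccna2, Ccnb1 and Cdk1 stood far lower, with medians of 7.98, 7.17 and 4.19 FPKM. The Cks subunits of the same list were higher, with 48.9 FPKM for Cks2 and 18.1 FPKM for Cks1b. The lowest were E2f7, with a median of 0.372 FPKM, and Ccnd1, with 0.0378 FPKM. From E2f2 down to E2f7, each gene's range over the libraries overlapped with that of its neighbour in the order.

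**Figure D1:**
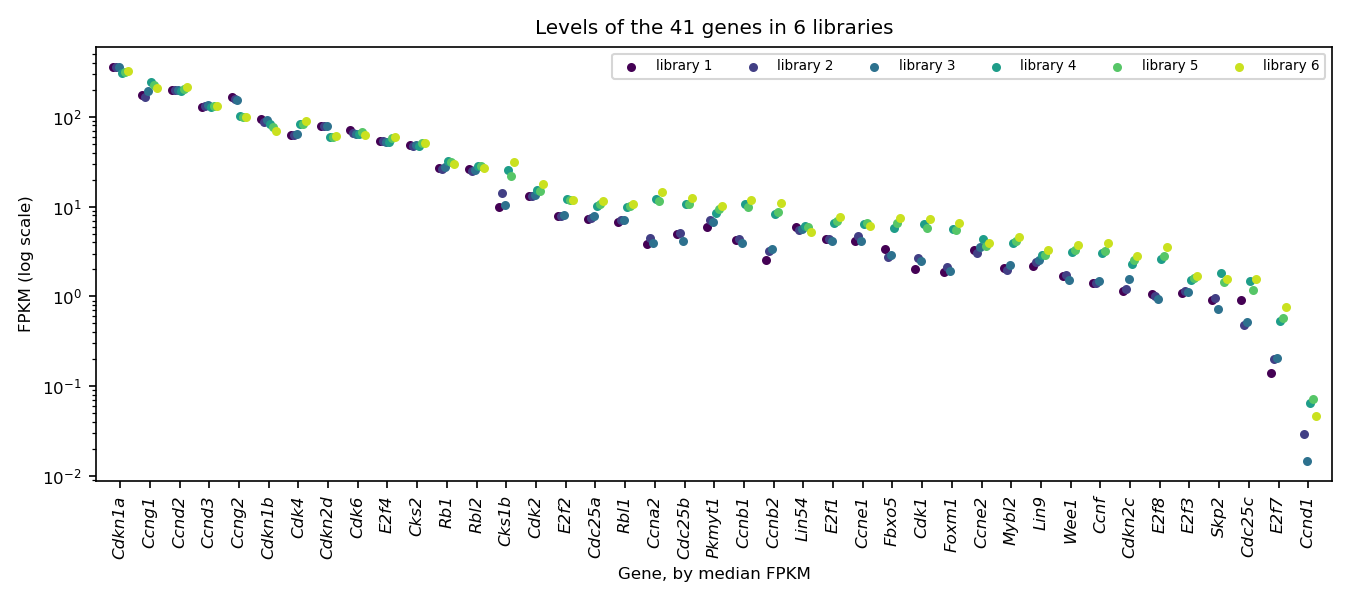
FPKM on a log scale for the 41 genes, ordered by median, with a point for each of the 6 libraries. Points of Cdkn1a lie highest, at 305 to 361 FPKM, and the points of Ccnd1 lowest, with library 1 not drawn because its value is 0.

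The genes differed in how far they ranged over the libraries. A range here means the highest of the 6 values divided by the lowest, both in CPM to which a prior count of 2 had been added, which shrinks the ranges of low genes. Of the 41 genes, 40 reached a mean of 1 CPM over the 6 libraries, the exception being Ccnd1. Of these 40, 16 ranged 2-fold or more, which is 40%, against 10.5% of all 11516 genes at that level. With the minimum mean raised to 10 CPM, the count was 8 of 31, which is 25.8%, against 3.33% of 8371 genes. A range of 3-fold or more was found for 6 of the 40, or 15.0%, against 3.16% of all genes. Low genes ranged further in general, and all 16 lay among the 28 of the 40 with a mean from 1 to 50 CPM, where 15.0% of all genes ranged 2-fold or more. The median range was 1.48-fold for the 40 genes and 1.29-fold for all genes. Because the genes were chosen with earlier results of these data known, these shares describe them and are no test.

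The highest and lowest libraries of the 16 genes were as follows. Library 6 was the highest for 15 of them and library 4 for Skp2, and the lowest value lay in library 1 for 7, in library 2 for 4 and in library 3 for 5. Among all 11516 genes, 2.73% ranged 2-fold or more with library 6 highest, against 15 of the 40, or 37.5%. For 7 of the 16, or 43.8%, library 6 lay above the next library beyond the 95% intervals of both, against 6.48% of the 1204 genes of the table that ranged 2-fold or more. The 7 were Ccna2, Ccnb2, Ccnf, Cks1b, E2f8, Cdc25b and Foxm1. The 95% intervals are exact Clopper-Pearson intervals and cover counting error only. An interval after a fold takes the highest and lowest libraries as fixed, though they were picked from the same values. It uses counts without the prior count. Intervals of the highest and the lowest library did not overlap for 39 of the 40 genes, against 85.0% of all genes. The exception was Cks2.

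Markers of B cells and of T cells and mitochondrial transcripts also varied between the libraries. The 5 B cell markers, none of which was at 0 in any library, had summed levels of 4.86, 5.58, 5.48, 8.17, 7.79 and 7.70 CPM. A range of 2-fold or more was seen for 2 of the 3 that averaged 1 CPM or more. Mitochondrially encoded genes took 2.01, 1.90, 1.98, 2.45, 2.37 and 2.40% of counts. Both were highest in library 4, and libraries 4, 5 and 6 lay above libraries 1, 2 and 3 in each. Summed levels of the 8 T cell markers went the other way, with 3042, 2967, 2883, 2466, 2475 and 2532 CPM. None of the 8 ranged 2-fold or more, and Cd3e and Cd4 were highest in library 6. The part of these markers and transcripts in the ranges described here was not tested.

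**Figure D2:**
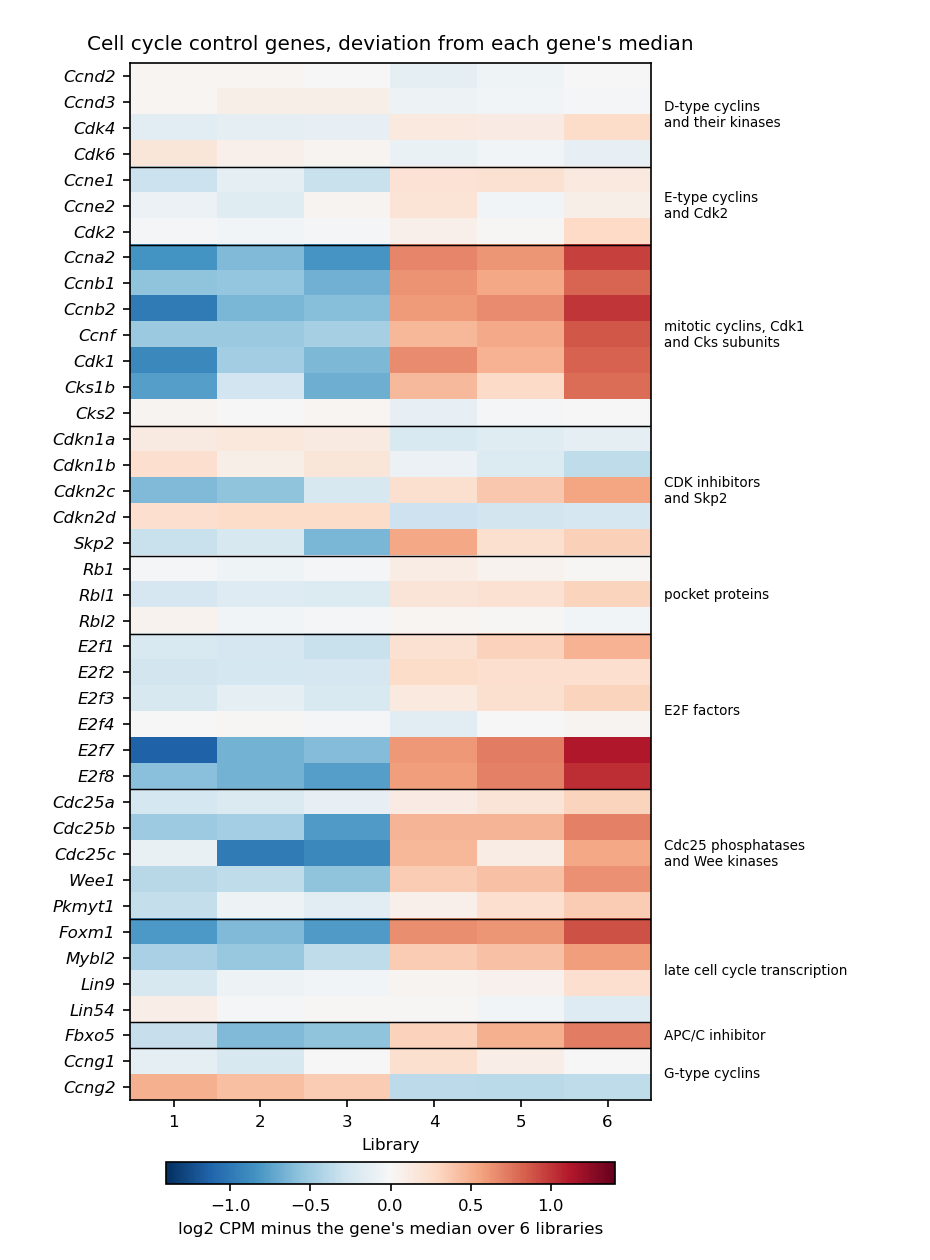
Deviation of log2 CPM from each gene's own median over the 6 libraries, for the 40 genes that reached 1 CPM on average, arranged by role. The rows of the mitotic cyclins, Cdk1, Foxm1, E2f7 and E2f8 are the most strongly coloured, and those of Ccnd2, Ccnd3, Cks2, Rb1, Rbl2 and E2f4 are close to white.

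Promoter sequence was not used to choose the genes. It is shown for the 7 matched genes that ranged 2-fold or more and held 2 or more CCAAT boxes. That choice was made after the sequences were seen. Cks2, a close relative of Cks1b, is shown with them and ranged under 2-fold. The other matched genes under 2-fold with 2 or more boxes, Ccng1, Cdc25a, Cdkn1b, E2f2 and E2f3, are not shown. Sequences are from RefSeq on GRCm38.p6, another assembly than the GRCm39 named by the submitters, and 30 of the 41 genes were matched by symbol. Those not matched were Ccna2, Ccnd1, Ccnd2, Ccne2, Rb1, E2f4, Cdc25c, Wee1, Pkmyt1, Foxm1 and Lin9. Motifs of 3 kinds were searched on both strands over 300 bases, from 250 before to 50 after the annotated start. These were the E2F motif as TTTCCCGC, TTTCGCGC, TTTGCCGC or TTTGGCGC, the cell cycle homology region (CHR) as TTTGAA, and the NF-Y box CCAAT. No matches overlapped each other in the windows of the 8 genes shown. Each sequence below runs 5′ to 3′ in the sense of the gene, from 150 bases before the start to 30 after it, and matches on either strand are in capitals. The windows are chr9:70421525-70421704 (minus strand) for Ccnb2, chr10:69352883-69353062 (minus) for Cdk1, chr17:24251380-24251559 (minus) for Ccnf and chr3:89418262-89418441 (minus) for Cks1b. They are chr10:5805436-5805615 (minus) for Fbxo5, chr13:100786457-100786636 (minus) for Ccnb1, chr10:110745289-110745468 (plus) for E2f7 and chr13:51645082-51645261 (plus) for Cks2.
Ccnb2: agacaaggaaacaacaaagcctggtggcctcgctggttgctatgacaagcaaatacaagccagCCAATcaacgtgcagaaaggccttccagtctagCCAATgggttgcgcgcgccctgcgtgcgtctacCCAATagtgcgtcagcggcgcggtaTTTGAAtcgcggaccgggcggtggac
Cdk1: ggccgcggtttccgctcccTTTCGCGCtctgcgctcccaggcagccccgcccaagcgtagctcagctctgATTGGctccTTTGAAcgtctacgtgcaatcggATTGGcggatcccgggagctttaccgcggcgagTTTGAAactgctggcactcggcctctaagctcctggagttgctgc
Ccnf: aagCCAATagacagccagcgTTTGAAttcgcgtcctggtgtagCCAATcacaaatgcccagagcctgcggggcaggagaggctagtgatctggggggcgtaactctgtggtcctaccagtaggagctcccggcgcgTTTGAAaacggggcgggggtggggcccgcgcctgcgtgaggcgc
Cks1b: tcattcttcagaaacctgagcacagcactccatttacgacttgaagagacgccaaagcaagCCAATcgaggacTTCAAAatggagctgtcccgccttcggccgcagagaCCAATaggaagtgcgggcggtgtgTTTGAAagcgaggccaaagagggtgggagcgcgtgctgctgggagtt
Fbxo5: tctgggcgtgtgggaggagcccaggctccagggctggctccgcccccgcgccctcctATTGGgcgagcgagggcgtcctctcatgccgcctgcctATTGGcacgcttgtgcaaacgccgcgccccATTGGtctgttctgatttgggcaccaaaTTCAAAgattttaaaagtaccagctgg
Ccnb1: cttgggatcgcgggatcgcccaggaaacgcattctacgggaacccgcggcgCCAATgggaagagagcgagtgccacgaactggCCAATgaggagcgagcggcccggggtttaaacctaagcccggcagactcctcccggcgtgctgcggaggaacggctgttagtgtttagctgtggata
E2f7: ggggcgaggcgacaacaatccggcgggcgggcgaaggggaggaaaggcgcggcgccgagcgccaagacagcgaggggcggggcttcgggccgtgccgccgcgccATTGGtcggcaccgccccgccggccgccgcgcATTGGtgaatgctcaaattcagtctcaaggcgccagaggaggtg
Cks2: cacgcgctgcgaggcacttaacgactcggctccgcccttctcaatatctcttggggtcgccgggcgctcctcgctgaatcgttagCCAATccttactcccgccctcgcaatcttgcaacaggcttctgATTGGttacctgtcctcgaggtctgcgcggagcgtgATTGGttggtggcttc

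The CCAAT boxes of these genes stood at varied distances from each other. In Ccnb2, 3 boxes began 87, 54 and 21 bases before the start, 33 bases from each to the next, and a CHR followed 5 bases into the transcript. Cdk1 had boxes 80 and 48 bases before the start, 32 bases apart, with CHRs at 71 and 15 bases before it and an E2F match at 131 bases. A further box of Cdk1 lay 128 bases upstream of these. Ccnb1 had boxes at 99 and 67 bases, and E2f7 at 46 and 14 bases, both pairs 32 bases apart. Neighbouring boxes were 40 bases apart in Ccnf, 38 and 30 in Fbxo5, 40, 88 and 48 in Cks1b, and 43, 36 and 18 in Cks2. The TTTGAA letters were not in the windows of Ccnb1 and E2f7. Outside the printed stretch, E2f7 had an E2F match 198 bases and Ccnb2 a further CHR 167 bases before the start. Cks1b had CHRs at 77 and 17 bases before its start, while the window of Cks2 held 4 CCAAT boxes and no TTTGAA.

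Shares of genes with each motif were counted per gene, over any of its listed starts. In this paragraph all genes means the 27025 genes with a RefSeq promoter, which were not filtered by their level in the libraries. A CHR was found in 7 of the 12 matched genes that ranged 2-fold or more, or 58.3%. It was found in 4 of the 18 matched genes that did not, or 22.2%, and in 20.2% of all genes. A CCAAT box was found in 11 of 12, or 91.7%, in 10 of 18, or 55.6%, and in 41.1% of all genes. An E2F match was found in 2 of 12, or 16.7%, namely Cdk1 and E2f7, in 5 of 18, or 27.8%, and in 2.60% of all genes. The 5 were Cdc25a, Cdk2, E2f2, E2f3 and Rbl1. At least 2 CCAAT boxes were found in 7 of 12, or 58.3%, in 6 of 18, or 33.3%, and in 13.3% of all genes. A CHR together with 2 or more CCAAT boxes occurred in 5 of 12, 2 of 18 and 2.81% of all genes. The 2 were E2f2 and E2f3. Both motif counts were made after the sequences were seen. These matches describe sequence and were not tested for use by any factor.

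**Figure D3:**
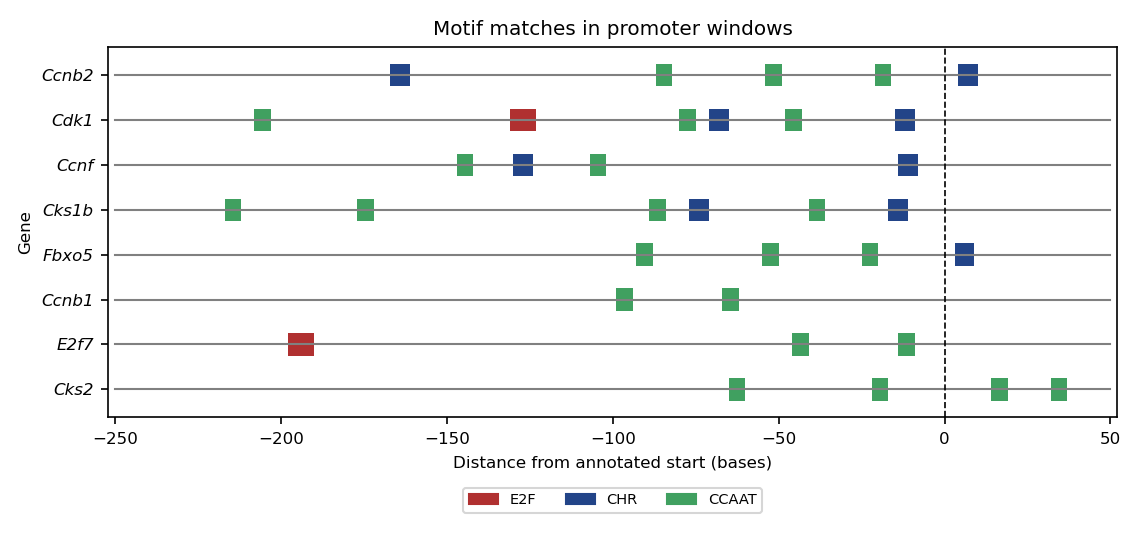
Matches to the E2F, CHR and CCAAT letters on either strand, drawn to scale by distance from the annotated start, in 300-base windows of 8 genes. A CHR match lies within 17 bases before the start in Cdk1, Ccnf and Cks1b and just after it in Ccnb2 and Fbxo5, with CCAAT boxes upstream. Further CHR matches begin 71 bases before the start in Cdk1, 77 in Cks1b, 130 in Ccnf and 167 in Ccnb2. Those of Cdk1, Cks1b and Ccnf lie between CCAAT boxes, and that of Ccnb2 lies upstream of its boxes.

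None of the D-type cyclins and their kinases that reached 1 CPM ranged 2-fold or more. Ccnd2, the main D-type cyclin of these libraries, had 1722, 1722, 1686, 1534, 1623 and 1692 CPM, a range of 1.122-fold. Ccnd3 had 335, 347, 349, 312, 320.0 and 323 CPM, also 1.119-fold. In FPKM the ratio of Ccnd2 to Ccnd3 was 1.57, 1.51, 1.47, 1.495, 1.54 and 1.59, so their balance moved by less than 1.2-fold over the libraries. Ccnd1 was almost absent, with 0, 4, 2, 9, 9 and 6 reads. Its highest library, library 5 with 0.259 CPM (0.118 to 0.491), overlapped in its counting interval with library 1, where it was not detected.

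Cdk4 and Cdk6, the kinases partnered by D-type cyclins, had opposite orders. Cdk4 had 92.8, 93.8, 95.2, 113, 112 and 124 CPM and was highest in library 6, with a range of 1.33-fold (95% counting interval 1.27 to 1.39). Cdk6 had 894, 837, 813, 745, 775 and 736 CPM and was highest in library 1, with a range of 1.22-fold (1.195 to 1.24). The ratio of Cdk4 to Cdk6 in FPKM, which does not depend on library scaling, was 0.884, 0.955, 0.998, 1.30, 1.23 and 1.43. It was lower in libraries 1, 2 and 3, with library 3 near 1, than in libraries 4, 5 and 6. The Cdk4 value is less certain, since 24.2% of its 50-base stretches are shared with other genes, mainly Tspan31 on the opposite strand.

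The E-type cyclins and Cdk2, which act at the entry into S phase, also stayed under 2-fold. Ccne1 had 8.46, 9.54, 8.43, 12.0, 12.2 and 11.5 CPM, a range of 1.44-fold (1.24 to 1.68), with libraries 4, 5 and 6 above the others. Ccne2 ranged 1.28-fold, from 10.5 to 13.4 CPM, and in library 5 lay below library 3. Cdk2, the shared partner of cyclins E and A, had 36.8, 36.2, 36.7, 39.2, 37.8 and 45.3 CPM. Library 6 stood apart for Cdk2, above library 4 beyond the intervals of both, while the other 5 libraries lay within 1.2-fold of each other.

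Pocket proteins hold E2F factors inactive, and only Rbl1 among the 3 varied beyond the median gene. Rbl1, which encodes p107 and is itself an E2F target, had 39.3, 40.8, 40.4, 52.1, 53.5 and 57.3 CPM, a range of 1.46-fold (1.36 to 1.57). Rb1, the retinoblastoma gene, had 139, 137, 141, 152, 147 and 143 CPM, a range of 1.11-fold. Rbl2, which encodes p130, the pocket protein of resting cells, had the narrowest range of the 40 genes under TMM scaling, 1.07-fold, from 127 to 135 CPM. With plain library totals its range was 1.14-fold, and the narrowest was that of Ccnd3 at 1.05-fold. The ratio of Rbl1 to Rbl2 in FPKM was 0.257, 0.285, 0.279, 0.348, 0.359 and 0.398.

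E2F factors split by type. E2f7 and E2f8, the atypical members that repress E2F targets late in S phase, ranged the furthest. E2f7 had 0.901, 1.27, 1.32, 3.14, 3.39 and 4.50 CPM, 4.75-fold (3.33 to 7.75), the widest range of the 40 genes under TMM scaling of all 6 libraries. With FPKM plus 0.1 its 3.56-fold lay below Ccnb2 and Ccna2, and without library 1 it lay below E2f8 and Ccna2. The counting intervals of E2f7 were 3.83 to 5.25 CPM for library 6, against 0.599 to 1.30 CPM for library 1. E2f8 had 4.38, 4.13, 3.84, 9.91, 10.8 and 13.6 CPM, 3.50-fold (2.91 to 4.31). Both were highest in library 6, and libraries 4 and 5 lay above libraries 1, 2 and 3.

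The activator factors E2f1, E2f2 and E2f3 ranged less. E2f1 had 14.3, 14.0, 13.3, 19.2, 20.8 and 23.3 CPM, 1.74-fold (1.56 to 1.96), E2f2 had 40.5, 41.05, 41.3, 58.1, 57.3 and 57.1 CPM, 1.43-fold, and E2f3 ranged 1.45-fold, from 28.7 to 41.7 CPM. In all 3, libraries 4, 5 and 6 exceeded the other libraries. E2f4, a repressor partner of p130 and the most abundant E2F gene with a median of 53.7 FPKM, had 111, 112, 109, 99.3, 111 and 114 CPM, a range of 1.15-fold. The ratio of E2f8 to E2f1 in FPKM was 0.240, 0.230, 0.226, 0.403, 0.405 and 0.457, so the atypical factor varied more than the activator within the same libraries.

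The CDK inhibitors did not vary in a single direction. Cdkn1a had 756, 766, 757, 595, 616 and 634 CPM and ranged 1.29-fold (1.27 to 1.31). Cdkn1b had 239.6, 217, 230.2, 192, 179 and 160.0 CPM, 1.497-fold (1.45 to 1.55), and Cdkn2d, which encodes the Cdk4 and Cdk6 inhibitor p19, had 104, 106, 106, 72.3, 73.8 and 75.0 CPM, 1.46-fold (1.39 to 1.54). All 3 were higher in libraries 1, 2 and 3 than in the other libraries. Cdkn2c, which encodes p18, an inhibitor of the same kinases, had 2.74, 2.83, 3.61, 4.93, 5.49 and 6.21 CPM, 2.25-fold (1.76 to 2.95), and ran in the other direction.

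Skp2, the ubiquitin ligase subunit that marks p27 for destruction, had 3.48, 3.70, 2.75, 6.33, 5.06 and 5.48 CPM, 2.27-fold (1.81 to 2.94), highest in library 4 and lowest in library 3. Its transcript was far lower per length than that of its target, with a ratio of Skp2 to Cdkn1b in FPKM of 0.00955, 0.0112, 0.00788, 0.0217, 0.0186 and 0.0226. Per length, the ratio of Cdkn2d to Cdk4 was 1.25, 1.25, 1.23, 0.706, 0.730 and 0.673, above 1 in libraries 1, 2 and 3 and below 1 in the others. The ratio of Cdkn1b to Ccnd2 was 0.477, 0.432, 0.468, 0.429, 0.379 and 0.324.

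The mitotic cyclins, Cdk1 and Cks subunits formed the role list with the widest median range, 2.92-fold. Of its 7 genes, 6 ranged 2-fold or more, and Cks2 did not. Of all genes 10.5% did so, and 15.0% of those with a mean from 1 to 50 CPM. Ccna2, the cyclin of S phase and early mitosis, had 13.5, 15.8, 13.6, 38.9, 37.2 and 47.2 CPM, 3.47-fold (3.13 to 3.88). Ccnb1 had 10.3, 10.5, 9.52, 23.6, 22.2 and 26.8 CPM, 2.80-fold (2.48 to 3.19), and Ccnb2, the other B-type cyclin, had 4.06, 5.20, 5.36, 12.3, 12.8 and 16.3 CPM, 3.99-fold (3.32 to 4.92). In each of these, libraries 1, 2 and 3 lay below libraries 4, 5 and 6, and library 6 was the highest.

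Cdk1, the kinase these cyclins activate, had 9.08, 12.1, 11.01, 27.0, 23.8 and 30.3 CPM, 3.32-fold (2.92 to 3.82). Its interval in library 6, 28.5 to 32.1 CPM, overlapped with that of library 4, 25.3 to 28.7 CPM. Ccnf, which encodes a cyclin-like ubiquitin ligase subunit, had 5.83, 5.81, 6.02, 11.5, 12.1 and 15.3 CPM, 2.61-fold (2.23 to 3.10). The ratio of Cdk1 to Cdk2 in FPKM was 0.151, 0.205, 0.183, 0.421, 0.385 and 0.408, and that of Ccna2 to Cdk2 was 0.290, 0.343, 0.292, 0.782, 0.774 and 0.819. Both ratios were higher in libraries 4, 5 and 6 than in libraries 1, 2 and 3.

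The small Cks subunits, which bind CDKs and aid their docking to phosphorylated substrates, differed from each other. Cks1b had 7.79, 11.1, 8.26, 18.3, 16.0 and 22.9 CPM, 2.92-fold (2.54 to 3.41). Cks2 had 35.4, 34.3, 35.2, 31.8, 33.9 and 34.5 CPM, 1.11-fold (1.024 to 1.21), and was the most abundant gene of this list by FPKM, with a median of 48.9. The ratio of Cks1b to Cks2 in FPKM was 0.202, 0.296, 0.215, 0.528, 0.433 and 0.608. The Cks2 value is uncertain, since 29.7% of its 50-base stretches also occur in transcripts of other genes, most in Gm15452.

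**Figure D4:**
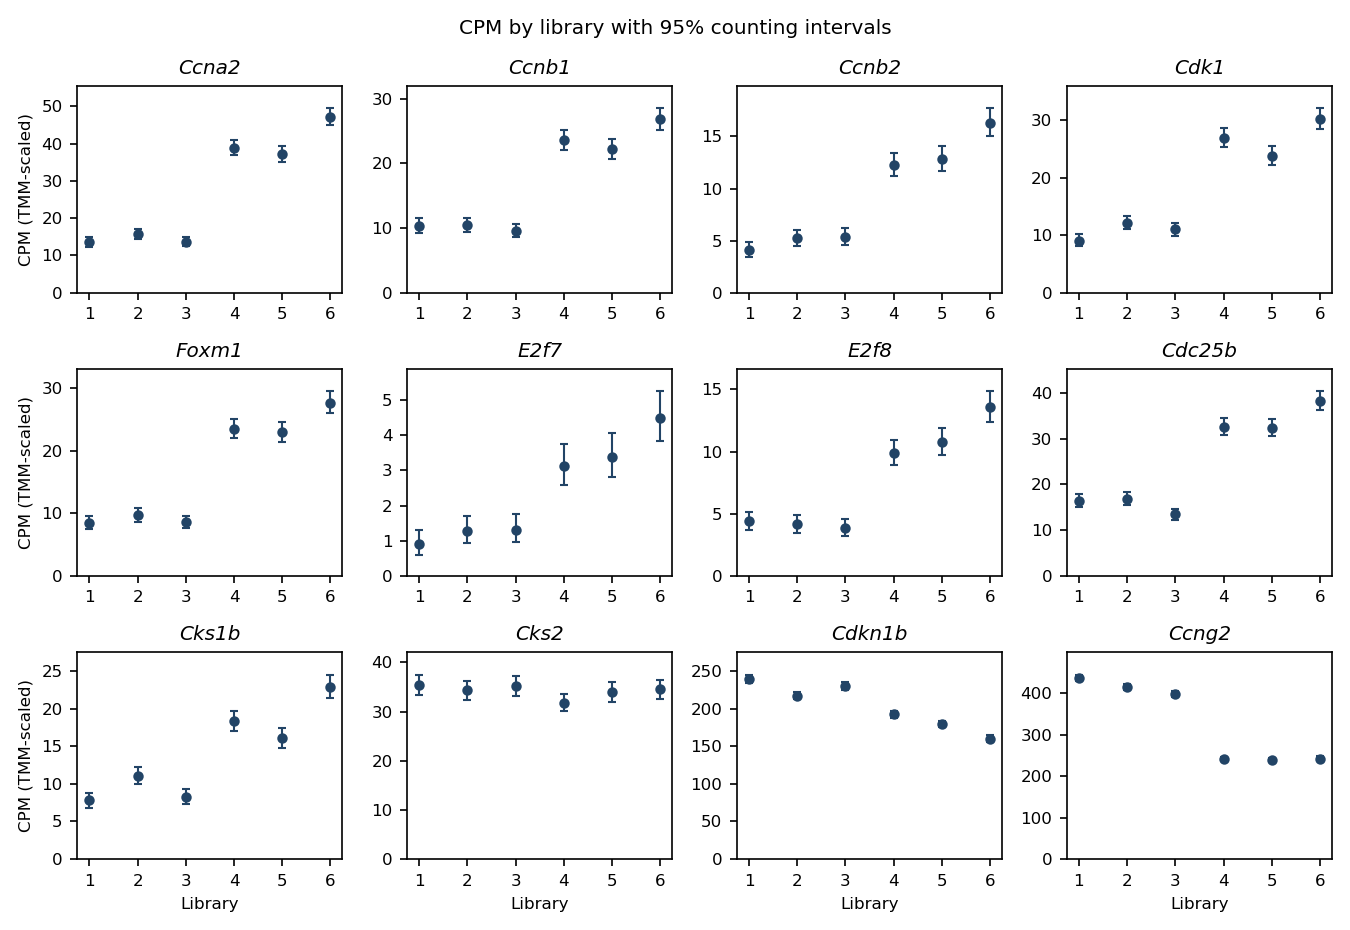
CPM of 12 genes in each of the 6 libraries on linear axes from 0, with exact 95% counting intervals as bars. Cks2 runs from 31.8 to 35.4 CPM, Ccna2 from 13.5 to 47.2 CPM and Ccng2 from 239 to 437 CPM.

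Cdc25 phosphatases activate CDKs and the Wee kinases inhibit them, and members of both kinds ranged 2-fold or more. Cdc25b, which acts at the entry into mitosis, had 16.4, 16.9, 13.5, 32.6, 32.4 and 38.3 CPM, 2.84-fold (2.56 to 3.17). Cdc25c was low, with 2.03, 1.07, 1.15, 3.03, 2.36 and 3.21 CPM, 2.90-fold (2.05 to 4.47), and library 1 lay closer to library 5 than to libraries 2 and 3. Cdc25a, which acts on Cdk2 at the start of S phase and had the highest median FPKM of the 5, had 28.4, 29.2, 30.9, 36.5, 38.0 and 41.5 CPM, 1.46-fold. Its range was narrower than those of its relatives.

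Wee1, the nuclear inhibitory kinase, had 6.08, 6.21, 5.39, 10.3, 10.6 and 12.5 CPM, 2.30-fold (1.95 to 2.76). Pkmyt1, its membrane-bound relative, had 18.7, 22.3, 21.2, 24.7, 27.6 and 29.97 CPM, 1.60-fold (1.45 to 1.78). The ratio of Cdc25b to Cdc25a in FPKM was 0.690, 0.688, 0.520, 1.07, 1.018 and 1.10, lower in libraries 1, 2 and 3 than in the others. All 5 genes were highest in library 6.

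Of the factors that drive the late wave of transcription, Foxm1 and Mybl2 varied and the MuvB subunits did so less. Foxm1, a forkhead factor active in G2, had 8.50, 9.68, 8.58, 23.5, 22.9 and 27.7 CPM, 3.24-fold (2.84 to 3.74). Mybl2, which encodes B-Myb, had 8.91, 8.44, 9.55, 15.6, 16.3 and 18.4 CPM, 2.17-fold (1.89 to 2.51). Lin9, a MuvB scaffold subunit, ranged 1.37-fold, from 7.24 to 9.93 CPM, and Lin54, the MuvB subunit that binds the CHR, had 39.8, 36.8, 37.6, 37.7, 36.2 and 32.8 CPM, 1.22-fold, lowest in library 6. Fbxo5, which encodes Emi1, an inhibitor of the anaphase-promoting complex, had 8.88, 7.23, 7.49, 13.9, 15.8 and 18.3 CPM, 2.52-fold (2.19 to 2.95).

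The G-type cyclins, which do not drive the cycle and are linked to growth arrest, were abundant and went apart. Ccng2, a target of FOXO factors in resting cells, had 437, 414, 398, 241, 239 and 242 CPM, 1.83-fold (1.78 to 1.88), the widest range of the 12 genes with a mean over 50 CPM. Ccng1 had 626, 591, 684, 805, 735 and 692 CPM, 1.36-fold (1.34 to 1.39), highest in library 4 and lowest in library 2. Their ratio, Ccng2 to Ccng1, was 0.956, 0.961, 0.797, 0.411, 0.446 and 0.479 in FPKM.

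**Figure D5:**
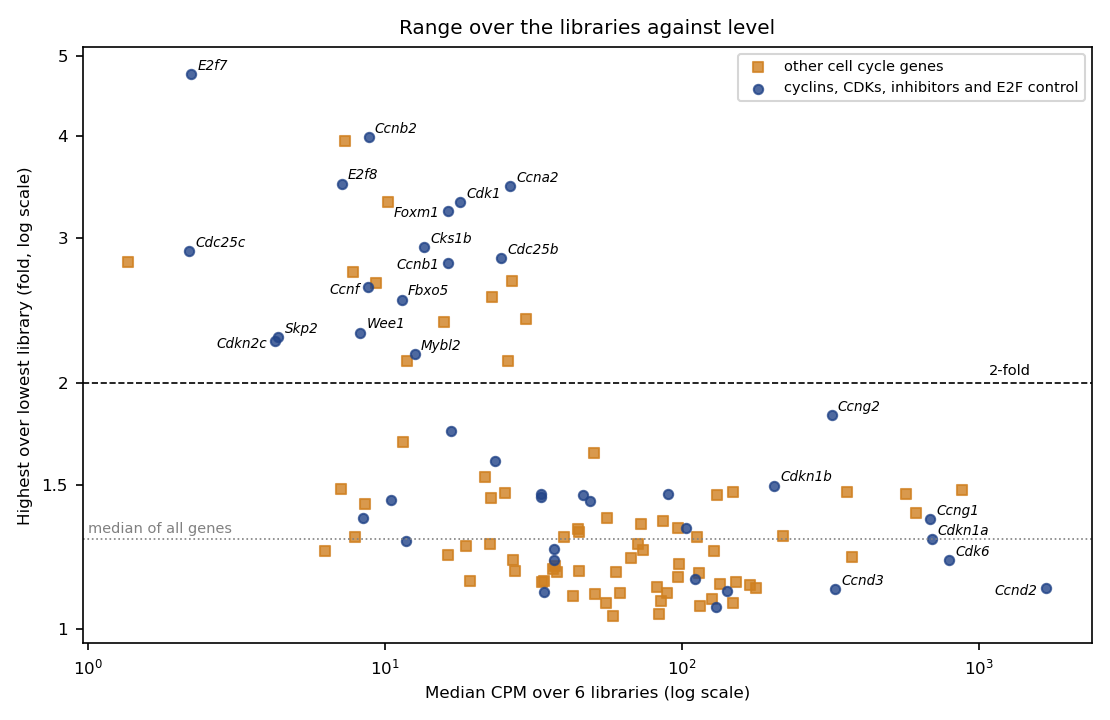
Highest over lowest library against the median CPM, both on log scales, for the 40 genes and for 72 other cell cycle genes. Genes above the dashed 2-fold line have means under 50 CPM, and Ccng2, at 1.83-fold, is the closest below it.

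Other genes of the pathway were examined in the same way, in 8 lists also chosen with earlier results of these data known. Of 75 found among the counted genes, 72 averaged 1 CPM or more, and a 2-fold range was reached by 11, against 10.5% of all genes. The mitotic kinases made up 7 of the 11, with all 7 of that list at 2-fold or more. The widest were Nek2, a centrosome kinase, with 3.09, 3.76, 4.22, 10.5, 11.3 and 12.3 CPM, Ttk, a spindle checkpoint kinase, with 4.41, 5.32, 4.02, 10.8, 10.3 and 11.05 CPM, Bub1, another checkpoint kinase, with 15.1, 18.1, 15.0, 35.5, 37.5 and 39.9 CPM, and Aurka, the spindle pole Aurora kinase, with 6.44, 6.74, 6.57, 13.8, 11.9 and 17.1 CPM. Aurkb, the most abundant of them by FPKM, ranged 2.54-fold, and all 7 were highest in library 6.

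The anaphase-promoting complex, which destroys cyclin B, had 2 of 18 genes at 2-fold or more, near the share of 10.5% over all genes. These were Cdc20, its mitotic activator, with 4.92, 6.74, 5.76, 13.8, 13.7 and 16.5 CPM, and Ube2c, its ubiquitin-conjugating enzyme, with 19.0, 21.8, 19.5, 38.2, 38.3 and 45.6 CPM. The highest median FPKM was that of Ube2s, a chain-extending enzyme of the same complex, at 1.31-fold, though Anapc16 exceeded it in libraries 1, 2 and 3. The median range of that list was 1.25-fold. Of the 8 E2F partners and MuvB subunits only Mybl1, which encodes A-Myb, ranged 2-fold or more, with 11.6, 9.86, 13.5, 23.5, 18.7 and 18.1 CPM. This 1 of 8 also lay near the share over all genes. Rbbp4, a histone-binding MuvB subunit and the most abundant of these, ranged 1.13-fold.

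Of the other lists, only that of further CDK inhibitors held a gene at 2-fold or more, the CDK phosphatase gene Cdkn3, with 0.933, 1.10, 0.631, 1.87, 1.64 and 1.80 CPM. The inhibitors Cdkn1c, Cdkn2a and Cdkn2b stayed under a mean of 1 CPM. The 15 cyclins and kinases of transcription, led in abundance by Ccnl2 at 1.39-fold, had a median range of 1.22-fold. Among 11 genes of the p53 response, with Bax highest in median FPKM and ranging 1.09-fold, the median range was 1.27-fold, and among 7 SCF ubiquitin ligase genes it was 1.19-fold. Skp1 had the highest median FPKM of the SCF genes and ranged 1.04-fold, though Cdc34 exceeded it in libraries 4, 5 and 6, as Trp53inp1 exceeded Bax in library 4. Of the 5 antiproliferative BTG and TOB genes, Btg1, the most abundant, had 1061, 1021, 1031, 733, 729.6 and 717 CPM, 1.48-fold, with libraries 1, 2 and 3 the highest.

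Some values share reads or sequence with other genes. Exons of 18 of the 41 genes overlap those of another gene, mostly on the opposite strand. Whether counting used the strand is not given in the sources used here. Ccna2 shared 12.8% of its 50-base stretches with Exosc9 on the opposite strand, which had 17.1 to 25.6 CPM. E2f8 shared 11.6% with Gm2788, also on the opposite strand, which had at most 0.0578 CPM. Sequence was also shared at a distance by Ccnb1, with 40.6% of its 50-base stretches, mainly in the pseudogene Ccnb1-ps, and by Mybl2, with 23.8%. Ccnb1-ps held at most 0.287 CPM in any library, against at least 9.52 CPM for Ccnb1. Without the 12 genes that shared 10% or more of their stretches with any other gene, 12 of 29 ranged 2-fold or more, and without the 3 that did so with genes elsewhere, 14 of 37. Both counts were made after the data were seen.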

How the data were processed

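The 6 libraries were made from total RNA isolated with TRIzol, per the labels' protocols. Per the submitters' processing notes, the tools were HTSeq, HISAT2, fastp, DESeq2 and R 3.2.0 and the build GRCm39, with no order or settings. Annotation and strand setting were not stated there. The authors deposited raw counts per gene and FPKM values, each as 1 table, both used as deposited. FPKM equalled the count over the library total times 1 fixed factor per gene, to within a relative 1.33e-08 over 10629 genes with at least 50 reads in every library, so it is another scaling of the same reads.

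No library had a treatment label, so none was grouped or averaged with another for comparison, and no test was made. The labels do not say whether libraries came from separate mice or cultures. Counts were scaled with TMM factors of edgeR 4.0.16 in R 4.3.3. Ranges used log2 CPM after adding a prior count of 2, for genes that averaged 1 CPM or more, in Python 3.11.15 (scipy 1.17.1, pandas 2.3.3, numpy 2.4.6, and matplotlib 3.10.9 for figures). The range procedure was tested on simulated counts with set changes and counting error only. That says nothing on how far real libraries vary beyond counting error. The labels name no molecular identifiers, and reads may repeat a molecule through PCR, so the 95% intervals and the floor of 3 counts cover counting error only. The members, the lists and the pairs set against each other were chosen with earlier results of these data known. Named by rule were all members at 2-fold or more and the most abundant and widest-ranging of each role. From the other lists these were genes at 2-fold or more, up to 4 a list, and the most abundant. Shared 50-base stretches and exon overlaps came from GENCODE M21 on GRCm38. As alternatives, plain totals, size factors of DESeq2 1.42.0, FPKM with a pseudocount of 0.1, a prior count of 0.5, a 5 CPM minimum, no minimum, and leaving out each library were tried.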

Additional observations from a re-analysis of the deposited data

How the results depend on the processing

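No paired analysis was possible because the labels place no library in a group. The count of 16 genes at 2-fold or more stayed at 16 with a prior count of 0.5, with the authors' FPKM values, with library totals alone and with the size factors of DESeq2. It was 12 at a minimum mean of 5 CPM, 17 without a filter, where Ccnd1 enters, and between 13 and 16 with each library left out. The lowest, 13, came without library 6, where Cdkn2c, Wee1 and Mybl2 lie under 2-fold, and Skp2 lies under 2-fold without library 3 or without library 4. The count of 11 other cell cycle genes lay between 9 and 14 over all alternatives. The 1204 genes of the whole table became 450 at a minimum of 5 CPM and 6870 without a filter, since low genes range further. They lay between 1040 and 1093 with a library left out. Plain total counts moved the median gene by up to 0.12 log2 units between libraries, which changes the extremes of genes with narrow ranges. With them Ccnd2, Cks2, Cdkn2d, Rbl2 and Lin54 had another highest library, and Cdk4, Cdk6 and Ccng2 kept both extremes. A floor of 3 counts limits what can be said of Ccnd1.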

Other observations

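Many of the genes split the libraries in the same way, with no treatment label to go with the split. When the 6 values of a gene were ordered, the widest gap on the log2 scale lay below libraries 4, 5 and 6 for 22 of the 40 genes and below libraries 1, 2 and 3 for 4, which were Cdkn1a, Cdkn1b, Cdkn2d and Ccng2. The other 14 were split in other ways, and 15 of the 22 were among the 16 that ranged 2-fold or more. Of the 1204 genes of the whole table at 2-fold or more, 31.6% had the split with libraries 4, 5 and 6 above. Over all 11516 genes, 16.1% had the first split and 18.7% the second. The median deviation of the 40 genes from their own medians was -0.23, -0.19, -0.20, 0.19, 0.22 and 0.31 log2 units in the 6 libraries. For the mitotic cyclins, Cdk1 and Cks subunits it was -0.77, -0.52, -0.62, 0.59, 0.53 and 0.83, and for the 7 mitotic kinases -0.47, -0.41, -0.65, 0.48, 0.41 and 0.70. For the D-type cyclins and their kinases it was 0.03, 0.05, 0.02, -0.08, -0.04 and -0.01. Every gene has a widest gap, however small, so the splits do not show separate clusters. For Ccne1 the counting intervals of library 6, 10.4 to 12.7 CPM, and library 2, 8.54 to 10.6 CPM, overlapped across it. The splits were read from the values and are not groups of the study.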
